A study of Homo sapiens with 12 samples.

Results

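Drug-tolerant expanded persister (DTEP) cells were compared with untreated BT474 cells at the level of mRNA, across all expressed genes. The comparison took the 3 libraries titled DTEP at month 6 and the 3 titled Control at day 0, which are 6 of the 12 libraries sequenced. BT474 is an established human breast cancer cell line with an amplified ERBB2 gene, and lapatinib is an oral kinase inhibitor that occupies the ATP pocket of EGFR and HER2, the product of ERBB2. In the study's account, DTEP cells were the proliferating population present after 6 months in 1 µM lapatinib, and Control cells were the BT474 line at day 0. The Control libraries carry the same treatment label as DTEP, namely lapatinib, 1 µM, and only their title and day mark them as the untreated group. The remaining libraries came from drug-tolerant persisters at day 9 (DTP) and long-term resistant cells at month 9 (LR), and their values are set beside those of DTEP without a test.

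HER2 binds no ligand of its own. It signals in pairs with EGFR, ERBB3 or ERBB4, the last 2 of which bind neuregulins, and it feeds the PI3K-AKT and RAS-ERK pathways. ERK signalling switches on its own inhibitors, the Sprouty and SPRED proteins and the DUSP phosphatases, so that the transcripts of these genes are commonly read as a measure of pathway output. When HER2 is inhibited, most cells of a sensitive culture stop dividing or die, a minority of slow-cycling persisters remains, and expanded persisters are cells that divide again in the continued presence of drug.

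The libraries held 18619398 to 22022737 assigned reads in Control and 17784573 to 25030482 in DTEP. Levels are given as normalised read counts, which are reads brought to 1 common library size with a correction for differences in composition, so that a gene without a read could have been at up to 0.138 to 0.163 in Control and 0.124 to 0.168 in DTEP (the worth of 3 reads, counting error only). Of 26485 genes in the table, 13171 had a value of 1 or more in at least 3 of the 6 libraries and were tested on log2(value + 1). Triplets of values below are always replicates 1, 2 and 3. A gene is said to have risen or fallen where limma's adjusted p was below 0.05 and the log2 change was beyond 2 in either direction. The study calls its libraries technical replicates and elsewhere describes parallel plates, so p-values may cover technical spread and not independent derivations.

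The 3 DTEP libraries were much less alike than the 3 Control libraries. The median SD over genes on the log2 scale was 0.331 in DTEP and 0.0725 in Control. DTEP replicate 3 stood apart from both other DTEP libraries by more than 2 on that scale in 124 genes, against 13 genes for replicate 1 and 7 for replicate 2. No Control library stood apart from its group in any of the 13171 genes. Of the 14 markers chosen for HER2-positive luminal cells, all 14 were measured, and their summed level was 14059 to 14658 in Control and 5452 to 7570 in DTEP. By the test described above, 6 of the 14 were lower in DTEP (ERBB2, STARD3, MIEN1, CDH1, ESR1 and PGR) and 1 was higher (GATA3). Over all genes tested, the shares were 6.44% and 4.62%. ERBB2, STARD3 and MIEN1 are neighbours on chromosome 17. The part of these markers in the other results was not tested. The basal markers summed to 4.33 to 5.61 in Control and 5.84 to 28.9 in DTEP, nearly all of it TP63, with CNN1 at 0 reads in all 6 libraries and KRT5 and KRT14 at no more than 1 read. The fibroblast markers summed to 51.3 to 61.7 and 79.9 to 121, nearly all of it COL1A1, with DCN at 0 reads. The endothelial markers summed to 8.14 to 8.85 and 0.165 to 0.431, in Control nearly all of it VWF. The blood cell markers summed to 0.0957 or less in every library, with CD3E and HBB at 0 reads. In such bulk libraries, fewer cells of a kind and less RNA per cell cannot be told apart.

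In all, 609 genes rose in DTEP (4.62% of those tested) and 848 fell (6.44%). The values of the 2 groups did not overlap in any of these genes, and they did not overlap in 66.5% of all genes tested. Without the limit on size, 3635 genes passed the test upward (27.6%) and 3590 downward (27.3%), and the median log2 change over all genes was 0.02. Leaving out DTEP replicate 3 gave 633 higher and 757 lower genes, of which 556 and 712 were among those called with all 6 libraries.

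**Figure D1:**
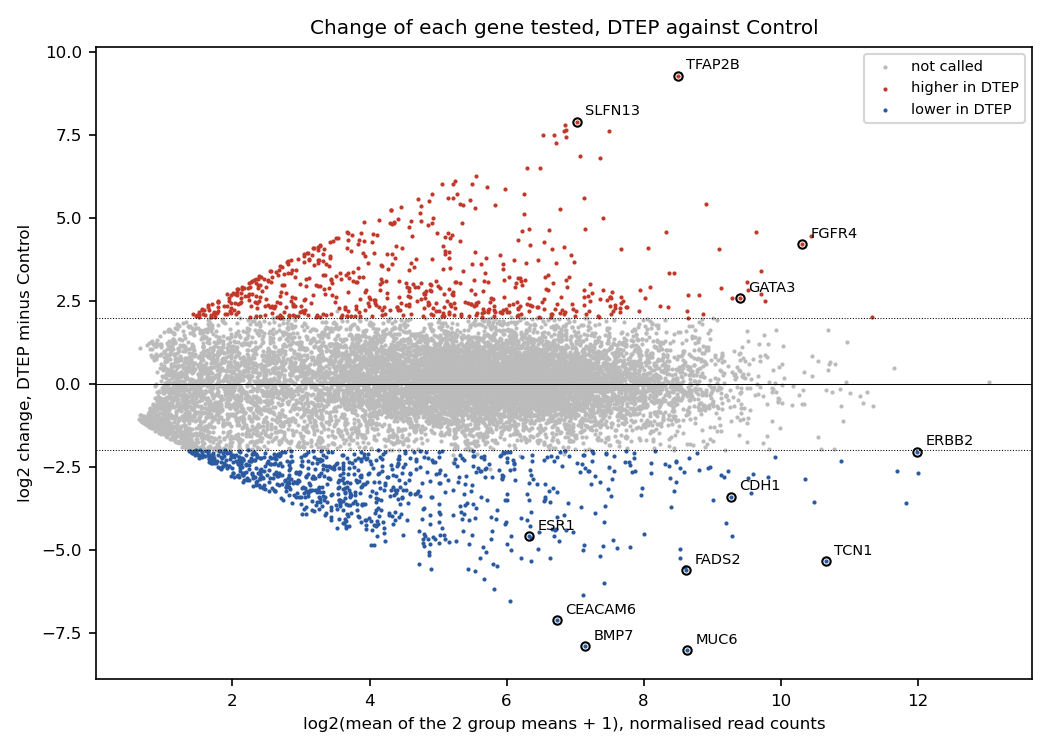
Log2 change of each gene tested, DTEP minus Control, on log2(value + 1), against the log2 of the mean of both group means with 1 added; every point is a gene, red for the genes that rose, blue for those that fell and grey for the rest, with dotted lines at 2 and -2 and 1 non-coding RNA not drawn. TFAP2B is the highest point at 9.28 and MUC6 the lowest at -8.02, while ERBB2 lies just below the lower line at -2.04.

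Some of the largest differences were in genes with next to no reads in Control. A total of 32 genes had 10 or more normalised read counts in every DTEP library and 3 reads or fewer in every Control library, and 15 of these had no Control read at all. In the DTP libraries, 31 of the 32 had 3 reads or fewer in every library, and in LR 26 of the 32 were at 10 or more in every library. TMCO1, an endoplasmic reticulum protein that lets calcium leak from overfilled stores, had no read in any Control or DTP library and was at 192, 203 and 151 in DTEP (log2 change 7.50 ± 0.17 SE, adjusted p = 3.21e-06). Against the limit of 3 reads it was at least 1117-fold higher in DTEP. It was at 143, 162 and 132 in LR. SLFN13, a Schlafen protein that cleaves tRNA, was at 0.0460, 0 and 0 in Control and 166, 215 and 391.97 in DTEP (log2 change 7.90 ± 0.31 SE, adjusted p = 1.18e-05). LGALS1, which encodes the sugar-binding protein galectin-1, was at 0.0920, 0 and 0.140 in Control and 266, 224 and 123 in DTEP (log2 change 7.50 ± 0.29 SE, adjusted p = 1.18e-05), and its LR values of 51.5, 82.6 and 77.8 were below every DTEP value. BST2, or tetherin, which holds budding virus particles at the cell surface, was at 0.138, 0.0544 and 0.140 in Control and 282, 242 and 154 in DTEP (log2 change 7.63 ± 0.24 SE, adjusted p = 6.52e-06). The gap between the Control and DTEP values of these 4 genes was fixed by the rule that chose them. In the other direction, 4 genes were at 10 or more in every Control library and at 3 reads or fewer in every DTEP library. They were CEACAM7, DPYSL3, RIMS2 and SCGN, named after their values were seen. CEACAM7 had no read in any DTEP library.

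The rule for naming genes took the 10 called genes with the largest change in each direction among those whose groups did not overlap. At the head of the genes that rose stood TFAP2B, which encodes transcription factor AP-2 beta. It was at 0.184, 0.163 and 0.0466 in Control, from 4, 3 and 1 reads, and at 552, 673 and 931 in DTEP (log2 change 9.28 ± 0.21 SE, adjusted p = 3.21e-06). It had no read in the 3 DTP libraries and was at 1248, 1120 and 1119 in LR. PXMP4, a peroxisomal membrane protein, was at 0, 0.109 and 0 in Control and 224, 215 and 249 in DTEP (log2 change 7.79 ± 0.15 SE, adjusted p = 3.08e-06). NR2F1, an orphan nuclear receptor studied for its part in tumour cell dormancy, was at 0.0920, 0.217 and 0.140 in Control and 212, 250.2 and 229.9 in DTEP (log2 change 7.65 ± 0.15 SE, adjusted p = 3.08e-06). Its antisense neighbour NR2F1-AS1 was among the 32 genes above, and because the counting ignored the strand, reads of such a pair cannot be told apart where they overlap. AZGP1, the secreted zinc-alpha-2-glycoprotein, was at 0.690, 0.924 and 0.792 in Control and 440.4, 296 and 342 in DTEP (log2 change 7.63 ± 0.18 SE, adjusted p = 3.46e-06). NES, the intermediate filament nestin, was at 0.0460, 0.326 and 0.186 in Control and 329, 273 and 94.6 in DTEP (log2 change 7.44 ± 0.45 SE, adjusted p = 3.81e-05), with replicate 3 far below the other DTEP libraries.

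At the head of the genes that fell stood MUC6, a gel-forming mucin, at 781, 776 and 809 in Control and 3.92, 2.51 and 0.617 in DTEP (log2 change -8.02 ± 0.38 SE, adjusted p = 1.87e-05). BMP7, a secreted bone morphogenetic protein, was at 276, 269 and 297 in Control and 0.431, 0.0824 and 0.0561 in DTEP (log2 change -7.90 ± 0.17 SE, adjusted p = 3.21e-06). CEACAM6, a cell adhesion glycoprotein, was at 202, 218 and 212 in Control and 1.34, 0.535 and 0 in DTEP (log2 change -7.11 ± 0.30 SE, adjusted p = 1.45e-05). The DTP libraries lay between the groups, with 151, 135 and 154 for MUC6, 20.2, 20.8 and 20.3 for BMP7 and 22.9, 27.1 and 27.9 for CEACAM6. LRP2, the endocytic receptor megalin, was at 124, 127 and 138 in Control and 0.383, 0.288 and 0.561 in DTEP (log2 change -6.53 ± 0.15 SE, adjusted p = 3.26e-06). PADI2, which converts arginine residues of proteins to citrulline, was at 269, 269 and 283 in Control and 3.21, 3.34 and 1.12 in DTEP (log2 change -6.34 ± 0.29 SE, adjusted p = 1.66e-05). The growth factor midkine (MDK) was at 339, 317 and 348 in Control and 10.1, 3.25 and 2.02 in DTEP (log2 change -6.00 ± 0.45 SE, adjusted p = 8.35e-05). For the other 4 genes of this group, DPYSL5, ALOX15B, AFF3 and FADS2, the log2 change was -6.18, -5.88, -5.62 and -5.60. FADS2, the desaturase that starts the making of long polyunsaturated fatty acids, had the highest Control level of these at 748, 765 and 796, and it was at 29.3, 12.4 and 8.81 in DTEP. For every gene of this paragraph, groups that did not overlap were a condition of the rule.

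**Figure D2:**
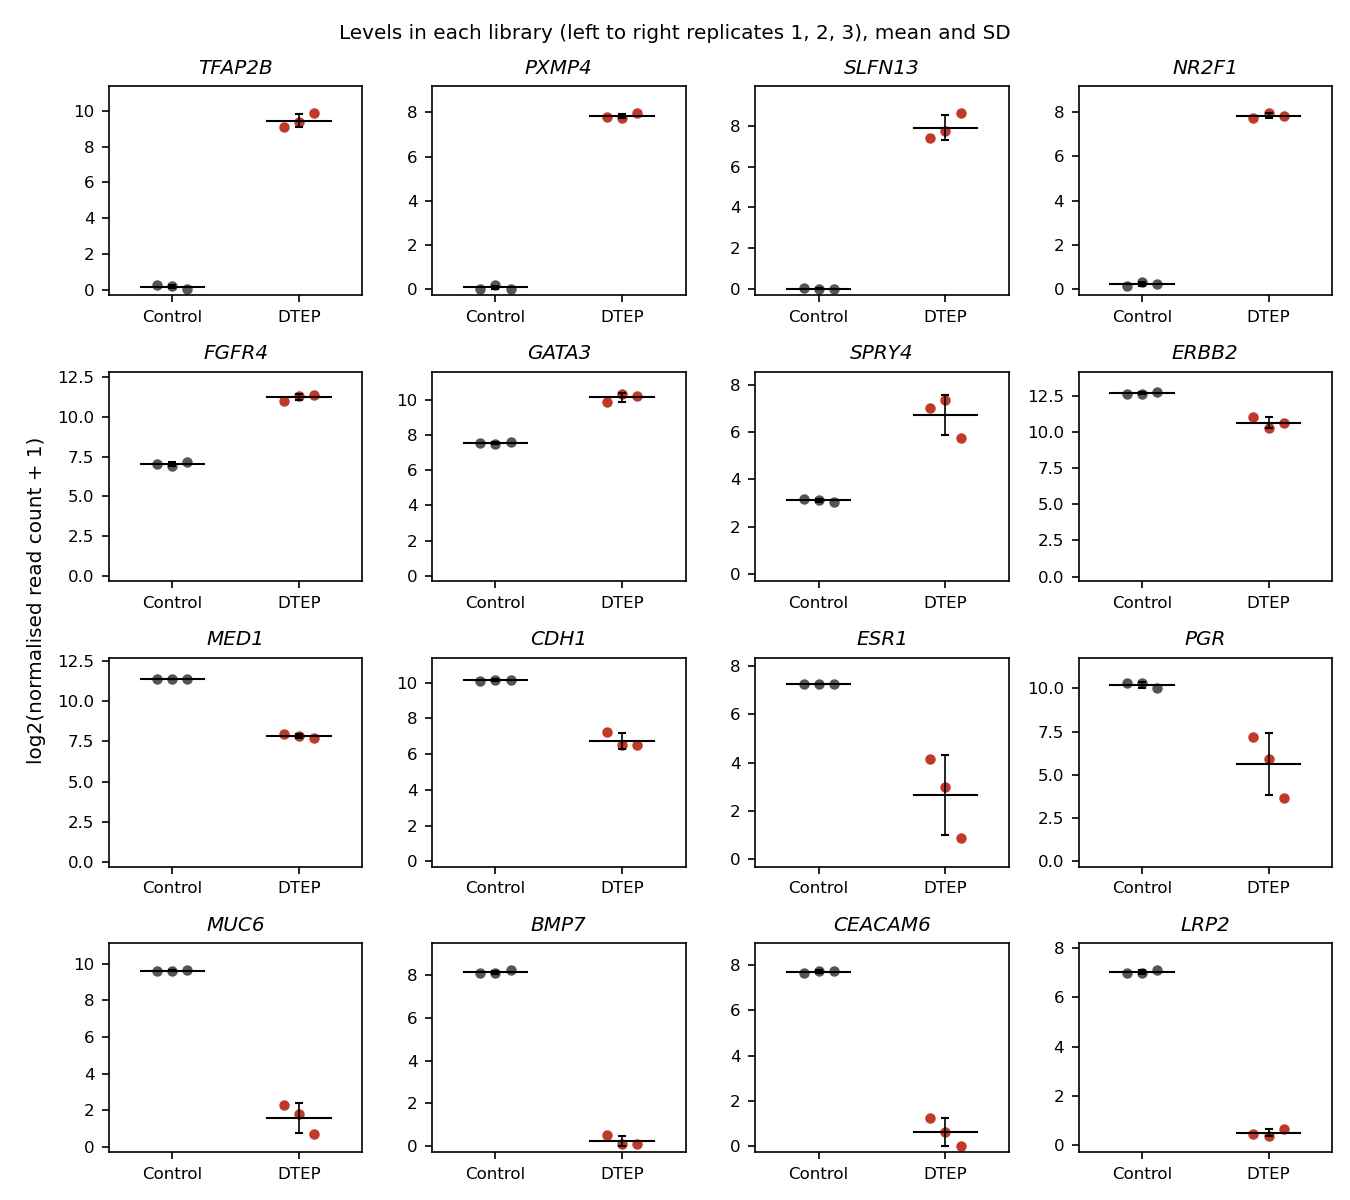
Level of 16 genes in each library as log2(normalised read count + 1), Control in grey and DTEP in red, with replicates 1, 2 and 3 from left to right; long bars are means and error bars SDs (n = 3). TFAP2B, PXMP4, SLFN13 and NR2F1 lie near 0 in Control, CEACAM6 and BMP7 near 0 in DTEP, and ESR1 and PGR have a wide spread in DTEP with the lowest value in replicate 3.

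The sequence just before the start of these genes is shown for the 3 highest-ranked in each direction whose window lay outside the gene itself, since promoters rich in CG dinucleotides differ in kind from those that are not. Each line gives the 250 bases before the start, 5′ to 3′ on the gene's strand, from RefSeq on GRCh38.p14, with every CG dinucleotide in capitals. The windows are chr20:33720311-33720560 (minus strand) for PXMP4, chr5:93582972-93583221 (plus strand) for NR2F1 and chr19:17405631-17405880 (minus strand) for BST2, and chr19:41755280-41755529 (plus strand) for CEACAM6, chr2:169362535-169362784 (minus strand) for LRP2 and chr1:17119452-17119701 (minus strand) for PADI2.
PXMP4: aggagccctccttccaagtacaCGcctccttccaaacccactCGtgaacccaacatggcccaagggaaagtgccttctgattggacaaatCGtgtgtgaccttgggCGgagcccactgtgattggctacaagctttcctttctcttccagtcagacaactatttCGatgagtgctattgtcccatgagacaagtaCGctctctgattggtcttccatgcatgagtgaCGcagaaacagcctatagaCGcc
NR2F1: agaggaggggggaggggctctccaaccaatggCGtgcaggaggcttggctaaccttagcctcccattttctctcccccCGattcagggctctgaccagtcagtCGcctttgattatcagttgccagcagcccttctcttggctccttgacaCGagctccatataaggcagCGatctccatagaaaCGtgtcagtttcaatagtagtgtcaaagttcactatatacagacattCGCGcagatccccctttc
BST2: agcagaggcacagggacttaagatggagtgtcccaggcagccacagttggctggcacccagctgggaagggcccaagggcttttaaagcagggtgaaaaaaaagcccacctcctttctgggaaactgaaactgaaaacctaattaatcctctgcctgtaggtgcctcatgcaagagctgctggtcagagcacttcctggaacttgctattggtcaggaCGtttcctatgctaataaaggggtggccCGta
CEACAM6: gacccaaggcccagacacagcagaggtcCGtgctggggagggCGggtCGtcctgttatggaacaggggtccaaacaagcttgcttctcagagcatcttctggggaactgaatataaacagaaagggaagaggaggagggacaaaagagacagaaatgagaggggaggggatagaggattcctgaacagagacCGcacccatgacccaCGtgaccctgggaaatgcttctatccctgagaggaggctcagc
LRP2: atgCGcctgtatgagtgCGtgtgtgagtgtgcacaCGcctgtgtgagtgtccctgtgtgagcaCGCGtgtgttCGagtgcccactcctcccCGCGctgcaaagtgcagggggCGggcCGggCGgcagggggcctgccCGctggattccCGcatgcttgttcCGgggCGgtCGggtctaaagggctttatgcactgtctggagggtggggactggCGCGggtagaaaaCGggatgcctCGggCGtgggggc
PADI2: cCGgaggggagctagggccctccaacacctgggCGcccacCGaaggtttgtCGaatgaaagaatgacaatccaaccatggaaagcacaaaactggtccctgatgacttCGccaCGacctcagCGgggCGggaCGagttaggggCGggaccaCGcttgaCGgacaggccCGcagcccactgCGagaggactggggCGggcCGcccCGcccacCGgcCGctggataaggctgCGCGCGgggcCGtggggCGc
The windows of PXMP4, NR2F1 and BST2 held 8, 8 and 2 CG dinucleotides, and those of CEACAM6, LRP2 and PADI2 held 5, 21 and 24. A window was called CpG-rich where its GC content was above 50% and its CG count above 0.6 times that expected from its base composition. By that measure LRP2 and PADI2 had CpG-rich windows, and the other 4 did not. RefSeq gave a window for 10283 of the 13171 genes tested, and 77.0% of them were CpG-rich. The share was 60.8% among the genes that rose (271 of 446 with a window), 61.9% among those that fell (391 of 632) and 78.8% among the rest (7256 of 9205). The letters of an AP-2 site, GCCNNNGGC, which read the same on both strands, were found in 28.7% of the windows of genes that rose, 29.4% of those that fell and 28.1% of all. The letters TATAAA, on either strand, were found in 5.61%, 6.96% and 5.06%. These are matches of letters, not sites in use.

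Of the 4 receptors of the HER2 family, 2 fell, 1 rose and 1 did not pass, and the 2 that fell were the targets of lapatinib. ERBB2 (chr17:39688094-39728658) was at 6390, 6356 and 6833 normalised read counts in Control and 2102, 1244 and 1534 in DTEP (log2 change -2.04 ± 0.27 SE, adjusted p = 0.000827). That was a 4.01-fold lower level, from 6526 ± 266 to 1627 ± 437 (mean ± SD, n = 3), and the groups did not overlap. Its change lay close to the limit of 2, with values of -1.86 to -2.24 when 1 library was left out, and the call was lost without DTEP replicate 2, with scaling by TMM and with edgeR. EGFR was at 22.4, 18.9 and 19.8 in Control and 0.478, 0.0824 and 1.35 in DTEP (log2 change -3.78 ± 0.29 SE, adjusted p = 8.86e-05). ERBB3, the neuregulin receptor without strong kinase activity, was at 377, 378 and 396 in Control and 471, 511 and 1211 in DTEP and did not pass the test (log2 change 0.79 ± 0.36 SE, adjusted p = 0.101), although every DTEP value was above every Control value. Such separation, in either direction, was found in 66.5% of all genes tested. The change of ERBB3 was 0.35 without DTEP replicate 3, the library with its highest value. ERBB4, the other neuregulin receptor, was at 11.5, 11.7 and 9.50 in Control and 29.4, 53.3 and 160.5 in DTEP (log2 change 2.44 ± 0.56 SE, adjusted p = 0.00932). Its change was 1.78 without DTEP replicate 3, the library with the highest value, which ends the call.

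Of 11 ligands of the family, 6 were tested, of which 1 rose and 2 fell. Listed genes that were not tested, here and in the lists that follow, had a value of 1 or more in fewer than 3 of the 6 libraries. The counts in these lists stand beside the 4.62% of all genes tested that rose and the 6.44% that fell. NRG3, a ligand of ERBB4, was at 2.85, 3.59 and 3.31 in Control and 20.05, 27.7 and 42.9 in DTEP (log2 change 2.81 ± 0.28 SE, adjusted p = 0.000256). The EGFR ligand TGFA was at 14.1, 13.97 and 13.4 in Control and 1.34, 2.43 and 0.449 in DTEP (log2 change -2.71 ± 0.31 SE, adjusted p = 0.000445). AREG, a further EGFR ligand, was at 10.8, 11.2 and 10.5 in Control and 2.25, 1.94 and 0.954 in DTEP (log2 change -2.16 ± 0.22 SE, adjusted p = 0.000279), and its change without DTEP replicate 3 was -1.94. NRG1, the main ligand of ERBB3, and NRG4 had no read in any of the 6 libraries, and NRG2 had at most 1.

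The genes beside ERBB2 on chromosome 17 moved with it. Of 29 listed neighbours in 17q12-q21, ERBB2 among them, 24 were tested, of which 17 fell and 0 rose, and the median log2 change was -2.32. Between 14 and 19 fell when 1 library was left out. MED1, a Mediator subunit that binds nuclear receptors, was at 2641, 2653 and 2656 in Control and 244, 227 and 206 in DTEP (log2 change -3.55 ± 0.14 SE, adjusted p = 1.37e-05). IKZF3, a zinc-finger factor of the Ikaros family, was at 327, 323 and 318 in Control and 32.5, 12.5 and 1.85 in DTEP (log2 change -4.89 ± 0.80 SE, adjusted p = 0.00221). THRA, a thyroid hormone receptor, was at 155, 149.9 and 155 in Control and 23.7, 16.5 and 14.7 in DTEP (log2 change -3.03 ± 0.19 SE, adjusted p = 4.11e-05), and PSMD3, a proteasome subunit, at 2224, 2193 and 2334 in Control and 588, 329 and 150.2 in DTEP (log2 change -2.87 ± 0.46 SE, adjusted p = 0.00195). STARD3, a cholesterol-binding protein next to ERBB2, was at 653, 632 and 687 in Control and 168, 99.4 and 66.97 in DTEP (log2 change -2.65 ± 0.31 SE, adjusted p = 0.000521). GRB7, an adaptor that binds HER2, was at 543, 526 and 571 in Control and 233, 125 and 89.9 in DTEP, just short of the limit (log2 change -1.98 ± 0.33 SE, adjusted p = 0.0023), and it passed without Control replicate 2 and without DTEP replicate 1. MIEN1 overlaps the end of ERBB2, and because the counting ignored the strand, reads of the 2 genes cannot be told apart in the overlap. MIEN1 was at 336, 329.5 and 344 in Control and 157, 73.6 and 23.7 in DTEP (log2 change -2.35 ± 0.61 SE, adjusted p = 0.0151), with a change of -1.64 without DTEP replicate 3. The call of MIEN1 was lost there and with edgeR.

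Position was then examined over the whole genome in 434 windows of 5 Mb that held at least 10 tested genes. The lowest median log2 change, -2.04, was in the window from 35 to 40 Mb of chromosome 17, where 32 of 62 genes fell and 3 rose. Within 3 Mb of ERBB2, 88 genes were tested, of which 37 fell and 3 rose. The genes that fell ran from ACACA, at -2603 kb from the start of ERBB2, to IGFBP4, at 755 kb, and beyond IGFBP4 KRT15 alone fell. Genes that were not called lay among them, and between THRA, at 374 kb, and IGFBP4 only RAPGEFL1 and RARA fell. The 3 that rose were LHX1, KRT23 and FKBP10, named after their values were seen. TOP2A, a topoisomerase gene at 700.4 kb that is often amplified together with ERBB2, did not pass the limit on size (-0.62, limma's adjusted p = 0.042). In windows of 10 Mb, chromosome 17 from 30 to 40 Mb (-1.34) was second to chromosome X from 20 to 30 Mb (-1.49). The next lowest medians at 5 Mb were on chromosome X from 20 to 25 Mb (-1.50, 5 of 17 genes fell), chromosome 17 from 55 to 60 Mb (-1.47, 12 of 36 fell), chromosome 7 from 105 to 110 Mb (-1.39, 5 of 22 fell) and chromosome 20 from 50 to 55 Mb (-1.37, 7 of 20 fell). The second of the chromosome 17 windows held RAD51C, TRIM37, RNF43 and CLTC and that of chromosome 20 BCAS1 and SALL4, all of which fell and were named after their values were seen. By chromosome, the share of genes that fell was 11.4% on chromosome 17 and 10.7% on chromosome 20, beside 6.44% of all genes tested. It was 9.77% on chromosome 21 and 9.13% on chromosome 7. The lowest chromosome medians were on chromosomes 7 (-0.631) and 18 (-0.485), against -0.318 on 17 and -0.16 on 20.

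The highest median, 1.57, was at the end of the long arm of chromosome X, from 150 to 155 Mb, where 18 of 51 genes rose. The table gives mRNA levels, and the number of copies of these regions was not measured.

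**Figure D3:**
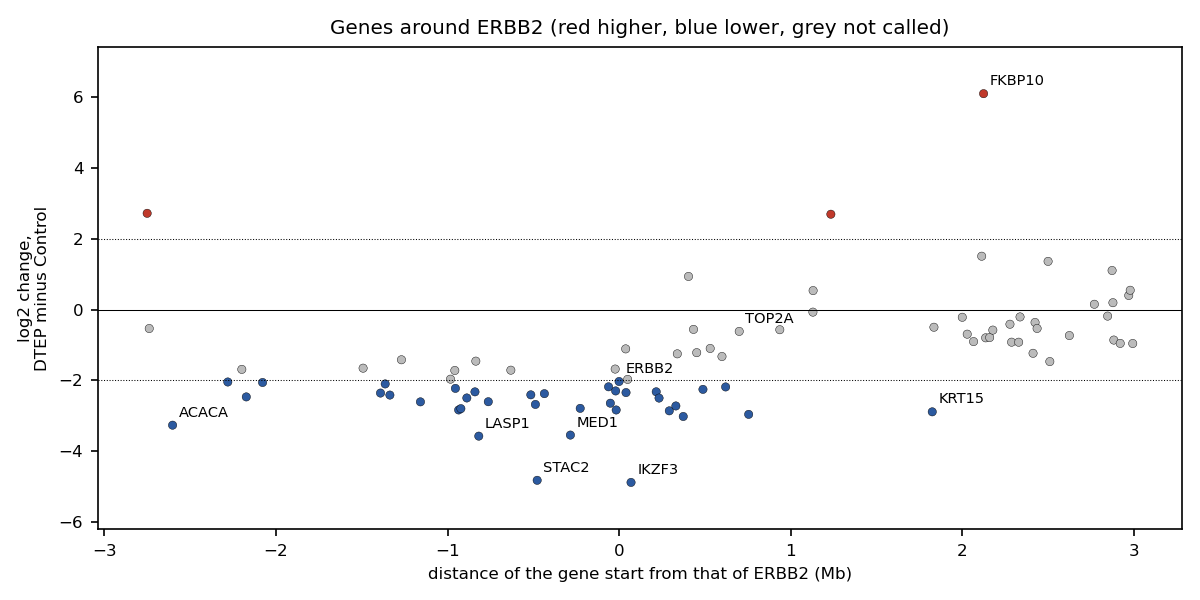
Log2 change, DTEP minus Control, of each tested gene against the distance of its start from that of ERBB2 in Mb; red, blue and grey points are genes that rose, fell or neither, with dotted lines at 2 and -2. Around ERBB2 most points from ACACA to THRA are blue, with grey points among them, and blue points are sparser from there to IGFBP4. Beyond IGFBP4 most points are grey.

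Among 20 tested genes of ERK output, 5 rose and 1 fell, and the median log2 change was 0.08. SPRY4, a Sprouty inhibitor of receptor signalling, was at 7.91, 7.72 and 7.17 in Control and 128, 162 and 52.7 in DTEP (log2 change 3.60 ± 0.40 SE, adjusted p = 0.000394). It was at 0.418, 0.296 and 0.288 in DTP. SPRY1 was at 6.49, 6.69 and 6.06 in Control and 70.8, 116 and 84.4 in DTEP (log2 change 3.60 ± 0.20 SE, adjusted p = 3.04e-05), and the nuclear ERK phosphatase DUSP5 at 10.3, 10.5 and 11.5 in Control and 97.5, 93.05 and 49.5 in DTEP (log2 change 2.72 ± 0.27 SE, adjusted p = 0.000257). The Sprouty-related inhibitor SPRED1 rose by 2.36. EMP1, a membrane protein induced by growth factors, was at 30.1, 31.9 and 29.2 in Control and 2.39, 1.07 and 0.337 in DTEP (log2 change -3.89 ± 0.33 SE, adjusted p = 0.000135).

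DUSP6, the cytoplasmic phosphatase of ERK, was at 18.4, 20.8 and 17.2 in Control, 1.72, 2.67 and 2.65 in DTP, 170.3, 211 and 30.5 in DTEP and 39.7, 30.2 and 68.2 in LR. It passed the test in DTEP against Control (log2 change 2.40 ± 0.68 SE, adjusted p = 0.0217), and all DTEP values were above the Control values, with replicate 3 much closer to Control than replicates 1 and 2. Groups likewise did not overlap, in either direction, in 66.5% of all genes tested. The call of DUSP6 was lost without any 1 Control library and without DTEP replicate 1 or 2, when the log2 change was 1.89 to 2.48 and the adjusted p reached 0.0788. DUSP4, a nuclear relative, was at 404, 399 and 403 in Control and 249.7, 374 and 189.7 in DTEP and did not pass (log2 change -0.62 ± 0.24 SE, adjusted p = 0.0681). DUSP1 was at 55.4, 59.1 and 51.1 in Control and 67.8, 72.99 and 23.9 in DTEP, with DTEP values on both sides of Control (log2 change -0.16 ± 0.41 SE, adjusted p = 0.762). CDC25A, the phosphatase that activates CDK2, likewise lay on both sides of Control at 70.7, 80.7 and 20.5 in DTEP against 48.8, 46.7 and 46.4 (log2 change 0.06 ± 0.48 SE, adjusted p = 0.929). SYNJ1, an inositol phosphatase, was at 28.9, 29.1 and 27.1 in Control and 21.8, 40.6 and 51.02 in DTEP (log2 change 0.32 ± 0.30 SE, adjusted p = 0.399). EGR1, an immediate early gene, was at 92.8, 107 and 74.6 in Control and 227, 256 and 13.4 in DTEP, and its sign turned with the library left out. None of the 5 tested MAP kinase phosphatases outside the ERK list was called. Without the limit on size, 1 passed upward and 2 downward, beside 27.6% and 27.3% of all genes.

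Other receptor tyrosine kinases changed in both directions, 3 of 17 tested upward and 3 downward, with a median of -0.19. FGFR4, a fibroblast growth factor receptor, was at 128, 119.8 and 141 in Control and 2060, 2540 and 2649 in DTEP (log2 change 4.20 ± 0.16 SE, adjusted p = 1.12e-05). It was 18.6-fold higher, from 129.7 ± 10.9 to 2416 ± 314 (mean ± SD, n = 3). MST1R, the RON receptor for macrophage-stimulating protein, was at 6.81, 8.86 and 8.80 in Control and 138, 203 and 187 in DTEP (log2 change 4.26 ± 0.19 SE, adjusted p = 1.66e-05). ROR2, a WNT5A receptor, had 3 reads or fewer in each Control library and was at 20.7, 16.8 and 13.4 in DTEP (log2 change 4.03 ± 0.19 SE, adjusted p = 1.78e-05). MET, the hepatocyte growth factor receptor, was at 89.7, 84.4 and 79.1 in Control and 6.08, 3.83 and 0.393 in DTEP (log2 change -4.56 ± 0.56 SE, adjusted p = 0.000624). FGFR3 fell by 3.62 on the log2 scale and MERTK fell by 2.55. MERTK lost its call without any 1 Control library and without DTEP replicate 2 or 3 (adjusted p up to 0.082).

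The receptors for ovarian hormones fell steeply and unevenly. ESR1, the estrogen receptor, was at 150.3, 153 and 149 in Control and 16.7, 6.88 and 0.842 in DTEP (log2 change -4.58 ± 0.74 SE, adjusted p = 0.00211). PGR, the progesterone receptor, was at 1262, 1251 and 1022 in Control and 147, 60.4 and 11.8 in DTEP (log2 change -4.59 ± 0.80 SE, adjusted p = 0.00295). In LR, ESR1 was at 0.211, 0.0553 and 0.194 and PGR at 3.00, 0.332 and 4.02. Of 25 tested estrogen response genes, 10 fell and 0 rose, with a median of -1.79, and 22 of the 25 were lower in the mean. The trefoil factor TFF1 was at 354, 339 and 367 in Control and 49.5, 14.1 and 2.25 in DTEP (log2 change -4.71 ± 0.89 SE, adjusted p = 0.00404). GREB1, a co-activator of the estrogen receptor, was at 489.6, 475 and 477 in Control and 61.8, 26.03 and 4.38 in DTEP (log2 change -4.53 ± 0.81 SE, adjusted p = 0.00316). AGR3, a disulfide isomerase, was at 22.5, 22.9 and 23.5 in Control and 0.526, 0.0824 and 0 in DTEP (log2 change -4.34 ± 0.20 SE, adjusted p = 1.66e-05), and the chemokine CXCL12 at 28.98, 27.3 and 28.8 in Control and 1.39, 0.577 and 0 in DTEP (log2 change -4.24 ± 0.31 SE, adjusted p = 7.75e-05). For each of these 6 genes, DTEP replicate 1 had the highest DTEP value and replicate 3 the lowest.

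Of 23 tested apocrine and steroid-responsive genes, 3 rose and 10 fell, with a median of -1.24. FKBP5, an HSP90 co-chaperone induced by steroid receptors, was at 0.506, 0.544 and 0.419 in Control and 70.1, 81.6 and 63.8 in DTEP (log2 change 5.61 ± 0.16 SE, adjusted p = 5.27e-06). AZGP1, given above, and the chloride channel regulator CLCA2 (4.59) were the other 2 that rose. TCN1, a vitamin B12 binding protein, was at 3007, 2976 and 3128 in Control and 452, 119 and 6.74 in DTEP (log2 change -5.34 ± 1.33 SE, adjusted p = 0.0132). ALOX15B, a lipoxygenase, was at 98.8, 96.2 and 102 in Control and 0.287, 1.52 and 0.505 in DTEP (log2 change -5.88 ± 0.26 SE, adjusted p = 1.66e-05). MUCL1, a small mucin-like protein, fell by 5.24 on the log2 scale.

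Among 19 luminal transcription factors, 3 rose and 3 fell. GATA3, a zinc-finger factor of luminal identity, was at 189.5, 183 and 198 in Control and 943, 1311 and 1225 in DTEP (log2 change 2.59 ± 0.17 SE, adjusted p = 4.57e-05). XBP1, a factor of the secretory pathway, rose by 2.01 and was at 1.95 without DTEP replicate 1, which ends the call, and TFAP2B was the other. ELF5, a factor of milk-secreting cells, was at 38.8, 40.99 and 38.2 in Control and 8.95, 5.40 and 0.337 in DTEP (log2 change -3.20 ± 0.69 SE, adjusted p = 0.00717) and fell with ESR1 and PGR. FOXA1 was at 397, 405 and 380.1 in Control and 575, 660.2 and 958 in DTEP, a smaller increase (log2 change 0.86 ± 0.21 SE, adjusted p = 0.0123). The relatives of TFAP2B differed in direction without reaching the limit on size, with TFAP2A at 96.95, 98.4 and 92.05 in Control and 214, 283 and 204 in DTEP (log2 change 1.26 ± 0.15 SE, adjusted p = 0.000626) and TFAP2C at 244, 243 and 242 in Control and 104, 66.2 and 60.9 in DTEP (log2 change -1.69 ± 0.21 SE, adjusted p = 0.000641).

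Of 16 tested genes of luminal keratins and adhesion, 1 rose and 2 fell. CDH1, E-cadherin, was at 1094, 1135 and 1146 in Control and 149.99, 89.01 and 88.9 in DTEP (log2 change -3.40 ± 0.22 SE, adjusted p = 5.07e-05). MUC1, a membrane mucin, was at 36.8, 34.5 and 39.2 in Control and 4.64, 1.77 and 3.42 in DTEP (log2 change -3.20 ± 0.27 SE, adjusted p = 0.000136). KRT8 was at 989, 936 and 1036 in Control and 517, 286 and 269 in DTEP (log2 change -1.53 ± 0.26 SE, adjusted p = 0.00278) and its partner KRT18 at 651, 633 and 669 in Control and 731, 489.6 and 368 in DTEP (log2 change -0.35 ± 0.25 SE, adjusted p = 0.275), and neither passed both limits. Of 9 mesenchymal genes tested, 0 rose and 3 fell, with a median of -1.50. VIM, vimentin, was at 59.4, 57.8 and 57.6 in Control and 10.7, 3.67 and 0.112 in DTEP (log2 change -3.92 ± 0.77 SE, adjusted p = 0.00485). S100A4 and FN1, fibronectin, fell by 2.31 and 2.12, the latter with -1.78 without DTEP replicate 3. Of 10 basal markers tested, KRT15 and CDH3 fell and 0 rose. KRT15 was at 58.04, 55.6 and 55.6 in Control and 25.3, 10.2 and 0.561 in DTEP (log2 change -2.90 ± 0.94 SE, adjusted p = 0.0355), and its call was lost without any 1 of the Control libraries and without DTEP replicate 2 or 3, with an adjusted p of up to 0.0911. KRT15 also lost its call with a pseudocount of 0.1, with edgeR and with DESeq2. CDH3 had -1.74 without DTEP replicate 3.

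**Figure D4:**
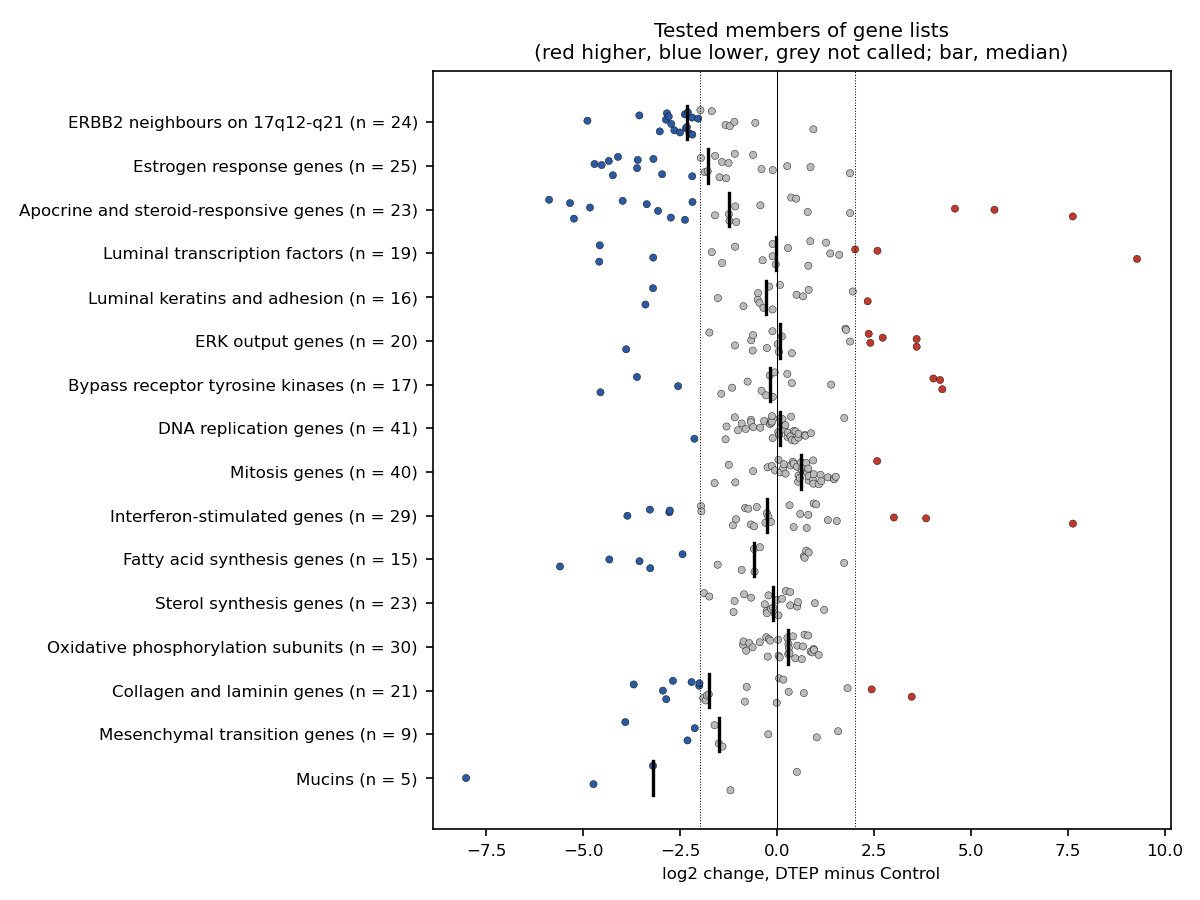
Log2 change, DTEP minus Control, of the tested members of 16 gene lists; each point is a gene, red for genes that rose, blue for those that fell and grey for the rest, black bars are medians, n counts the members tested and dotted lines are at 2 and -2. The ERBB2 neighbours, the estrogen response genes and the mucins lie to the left with medians of -2.32, -1.79 and -3.20, and the mitosis genes sit at a median of 0.62.

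Of 40 tested mitosis genes, 33 were higher in the mean, 1 rose beyond the limit on size and 0 fell, and the median was 0.62. Without that limit, 19 of the 40 passed upward and 4 downward, beside 27.6% and 27.3% of all genes. MKI67, the proliferation antigen Ki-67, was at 221, 221 and 229.8 in Control, 2.19, 2.32 and 3.63 in DTP and 463, 604 and 622 in DTEP (log2 change 1.31 ± 0.15 SE, adjusted p = 0.000531). FOXM1, a transcription factor of mitotic genes, was at 186, 184 and 194 in Control and 290.3, 308 and 234 in DTEP (log2 change 0.55 ± 0.14 SE, adjusted p = 0.0152). CDC25C, the phosphatase that starts mitosis, was at 12.6, 12.3 and 12.8 in Control and 38.3, 29.1 and 44.2 in DTEP (log2 change 1.47 ± 0.18 SE, adjusted p = 0.000681). For these 3 genes every DTEP value was above every Control value, and the change was below the limit of 2. Groups that did not overlap, in either direction, were found in 66.5% of all genes tested. NUSAP1, a spindle protein, passed that limit at 52.7, 51.6 and 50.8 in Control and 327, 322 and 293 in DTEP (log2 change 2.58 ± 0.11 SE, adjusted p = 1.48e-05).

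Of 41 DNA replication genes, 0 rose and 1 fell, with a median of 0.06. The 1 that fell was POLA1, the catalytic subunit of DNA polymerase alpha, at 227, 226 and 218 in Control and 56.5, 54.9 and 40.5 in DTEP (log2 change -2.13 ± 0.16 SE, adjusted p = 7.8e-05), with a change of -1.98 without DTEP replicate 3. E2F1, a factor that switches on replication genes, was at 40.8, 44.1 and 44.7 in Control and 184, 219 and 76.4 in DTEP (log2 change 1.73 ± 0.38 SE, adjusted p = 0.0073), and passed the limit at 2.19 without DTEP replicate 3. Of 14 G1 cyclins and CDK inhibitors, RBL1, a retinoblastoma relative, rose (2.10) and the kinase CDK6 fell (-2.20, -1.82 without DTEP replicate 3). CCND1, cyclin D1, was at 399, 385 and 363 in Control and 439.9, 429 and 229.5 in DTEP and did not pass (log2 change -0.12 ± 0.26 SE, adjusted p = 0.719). Of 25 DNA repair genes, 1 fell, the recombination gene XRCC2 (-2.27, -1.87 without DTEP replicate 1).

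Of 15 tested genes of fatty acid synthesis, 5 fell and 0 rose, with a median of -0.60. Besides FADS2, the desaturase FADS1 was at 187, 186 and 168 in Control and 27.9, 10.1 and 10.6 in DTEP (log2 change -3.55 ± 0.36 SE, adjusted p = 0.000297). ACACA, acetyl-CoA carboxylase, which lies among the chromosome 17 genes above, was at 1329, 1374 and 1395 in Control and 151, 171 and 107 in DTEP (log2 change -3.27 ± 0.20 SE, adjusted p = 3.54e-05). ME1, which supplies NADPH for synthesis, was at 33.5, 37.02 and 32.4 in Control and 1.77, 0.947 and 0 in DTEP (log2 change -4.33 ± 0.36 SE, adjusted p = 0.000127). Of 23 sterol synthesis genes, 0 rose and 0 fell. When size was not considered, 2 passed upward and 4 downward, beside 27.6% and 27.3% of all genes. In fatty acid oxidation and ketone genes, 2 of 18 rose and 3 fell. PPARA, the nuclear receptor that drives fatty acid oxidation, was at 1.79, 1.47 and 2.05 in Control and 17.8, 22.3 and 64.05 in DTEP (log2 change 3.47 ± 0.45 SE, adjusted p = 0.000793), and ACAA2, ACADM and CPT1A fell by 2.52, 2.31 and 2.03 on the log2 scale. Without DTEP replicate 3, ACAA2 changed by -1.92 and ACADM by -1.77, and CPT1A lost its call without DTEP replicate 1 or 2. The rise of ACOX2 (2.30, adjusted p = 0.0321) was lost without any 1 of 5 libraries, with an adjusted p of up to 0.102.

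Among 27 glycolysis and hypoxia genes, 3 rose and 1 fell. LDHB, the lactate dehydrogenase subunit that favours the return of lactate to pyruvate, was at 53.4, 51.97 and 48.5 in Control and 3.78, 0.453 and 0 in DTEP (log2 change -4.78 ± 0.54 SE, adjusted p = 0.000445). The prolyl hydroxylase EGLN3, the enolase ENO2 and the angiogenic factor VEGFA, all known to be induced in hypoxia, rose by 2.64, 2.58 and 2.15. Without DTEP replicate 3 the count that rose was 5, with BNIP3 and NDRG1 added at 2.30 and 2.21. None of 30 oxidative phosphorylation subunits was called. Without the limit on size 6 passed upward and 3 downward, beside 27.6% and 27.3% of all genes. Of 30 ribosomal proteins, 28 increased in the mean, and the median was 0.66. Without the limit on size, 14 passed upward and 1 downward, beside 27.6% and 27.3% of all genes. RPL23, which lies at -840.2 kb from ERBB2, was the 1 that fell, at 3121, 3076 and 3028 in Control and 1274, 498 and 359 in DTEP (log2 change -2.33 ± 0.45 SE, adjusted p = 0.00443), with -1.95 without DTEP replicate 3. Of 27 MYC targets, none was called. Without the limit on size 4 of them passed in each direction, beside 27.6% and 27.3% of all genes. Of 22 stress response genes, PSAT1, an enzyme of serine synthesis, fell from 111, 118 and 107 to 3.92, 0.741 and 0.898 (log2 change -5.48 ± 0.39 SE, adjusted p = 7.2e-05), and SDF2L1 rose by 2.31. Of 20 redox genes, 1 rose and 1 fell, the latter the glutathione transferase GSTM3 (-3.21).

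Of 29 tested interferon-stimulated genes, 3 rose and 4 fell, with a median of -0.27. IFITM2 was at 0.322, 0.435 and 0.373 in Control and 24.8, 17.4 and 15.2 in DTEP (log2 change 3.84 ± 0.20 SE, adjusted p = 2.46e-05), while its close copy IFITM3 fell by 2.77 on the log2 scale, and counting may split reads between such copies. MX2, an antiviral GTPase, was at 36.1, 37.02 and 38.99 in Control and 3.97, 1.65 and 0.393 in DTEP (log2 change -3.86 ± 0.43 SE, adjusted p = 0.000418). HERC6, a ubiquitin ligase, was at 26.3, 26.5 and 22.6 in Control and 3.73, 1.52 and 0.617 in DTEP (log2 change -3.28 ± 0.38 SE, adjusted p = 0.000461), and IFI35 was the other to fall (-2.78). IRF7, which drives interferon genes, rose by 3.01.

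Of 21 collagens and laminins, 7 fell and 2 rose, with a median of -1.76. The 7 became 4 without DTEP replicate 3, when COL4A2, COL6A2 and COL18A1 were within the limit of 2, and 6 to 8 with any other library left out. COL12A1 was at 630.3, 603 and 584 in Control and 122, 66.9 and 11.2 in DTEP (log2 change -3.70 ± 0.78 SE, adjusted p = 0.0064), COL6A1 at 12.1, 11.9 and 12.02 in Control and 1.96, 0.618 and 0 in DTEP (log2 change -2.95 ± 0.37 SE, adjusted p = 0.000693) and LAMB1 at 143, 141 and 145 in Control and 37.9, 14.01 and 12.4 in DTEP (log2 change -2.86 ± 0.39 SE, adjusted p = 0.000981). The neighbouring basement membrane collagens COL4A5 and COL4A6 of chromosome X rose, COL4A5 from 8.78, 9.68 and 8.62 to 101, 92.9 and 142 (log2 change 3.47 ± 0.19 SE, adjusted p = 2.64e-05) and COL4A6 by 2.44. Among 13 integrin subunits, ITGA6, a laminin receptor chain, rose (2.62) and ITGB6 fell (-3.11). Of 5 tested mucins, MUC6, MUC5B (-4.74) and MUC1 fell and 0 rose. Of 8 S100 proteins, S100A6, S100A10 and S100P fell by 3.57, 3.49 and 2.09, while the median was 0.43. S100A10 lost its call with edgeR. It also lost the call without Control replicate 3 and without DTEP replicate 2 (adjusted p up to 0.0603), and S100P was at -1.72 without DTEP replicate 3. None of 5 claudins was called. Of the 3 tested markers of fibroblasts, endothelium and blood, VWF, the von Willebrand factor, fell (-2.92).

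ABC transporters, which pump drugs and lipids, held 3 genes that rose and 2 that fell among 10 tested, with a median of -1.03. Without the limit on size, 3 passed upward and 7 downward, beside 27.6% and 27.3% of all genes. ABCC6 was at 0.0460, 0.0544 and 0 in Control and 14.9, 17.3 and 42.4 in DTEP (log2 change 4.495 ± 0.37 SE, adjusted p = 0.000126), with the reservation that pseudogene copies may share its reads. ABCG1 and ABCA3, both lipid transporters, rose by 2.42 and 2.37, the former with 1.81 without DTEP replicate 3. ABCC3 was at 309, 307 and 331 in Control and 47.3, 31.3 and 8.92 in DTEP (log2 change -3.67 ± 0.54 SE, adjusted p = 0.00134) and ABCC2 at 45.6, 48.7 and 49.1 in Control and 4.16, 2.88 and 4.27 in DTEP (log2 change -3.37 ± 0.18 SE, adjusted p = 2.36e-05). Among 14 members of the BCL2 family, 2 fell and 0 rose. PMAIP1, the pro-death protein NOXA, was at 18.3, 18.9 and 17.1 in Control and 1.15, 0.989 and 0 in DTEP (log2 change -3.56 ± 0.30 SE, adjusted p = 0.000136), and the survival factor BCL2 fell by 2.06 (-1.88 without DTEP replicate 3).

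Signalling and patterning genes were called in small numbers, to be read beside the 4.62% of all genes that rose and the 6.44% that fell. FOXO4 rose from 7.17, 6.58 and 6.71 to 42.2, 42.7 and 44.5 (log2 change 2.50 ± 0.14 SE, adjusted p = 2.65e-05). It was the 1 call among 19 tested genes of a list of FOXO and PI3K-repressed genes. Of these 19, 9 passed upward and 2 downward without the limit on size, beside 27.6% and 27.3% of all genes. In the IGF axis, 1 of 7 rose and 1 fell. IRS4, an insulin receptor substrate with 3 Control reads or fewer, was at 2.68, 17.3 and 28.5 in DTEP (log2 change 3.57 ± 0.71 SE, adjusted p = 0.00511), and IGFBP4, an IGF-binding protein of the chromosome 17 run, was at 277, 281 and 278 in Control and 107, 28.1 and 13.6 in DTEP (log2 change -2.97 ± 0.66 SE, adjusted p = 0.00817). Of 14 Notch genes, the ligand JAG1 rose (2.37) and the target HEY2 fell (-3.71). Of 13 Hippo genes, TEAD1, the factor that carries YAP to DNA, fell from 171, 176 and 156 to 10.7, 5.40 and 1.07 (log2 change -4.97 ± 0.58 SE, adjusted p = 0.000486). In the TGF-beta and BMP list, BMP4 rose (2.89) while BMP7, TGFBR2 (-2.52) and SMAD9 (-2.13) fell, out of 17 tested. The number that fell was 5 without DTEP replicate 2, when ID1 and ID3 passed at -2.97 and -2.83. Of 12 stem and tolerance markers, NES rose and ALDH1A1 (-3.25) and CD44 (-3.11) fell, with a median of -0.996. Without the limit on size, 1 of the 12 passed upward and 9 downward, beside 27.6% and 27.3% of all genes.

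Called HOX genes all belonged to the HOXB cluster of chromosome 17. HOXB13, at the outer end, was at 81.5, 78.4 and 89.8 in Control and 2.97, 0.371 and 0 in DTEP (log2 change -5.58 ± 0.48 SE, adjusted p = 0.000148). HOXB9 was at 13.98, 15.3 and 14.4 in Control and 1.53, 0.288 and 0 in DTEP (log2 change -3.39 ± 0.33 SE, adjusted p = 0.000251) and HOXB7 at 60.5, 60.1 and 56.2 in Control and 9.43, 2.39 and 0.0561 in DTEP (log2 change -4.16 ± 0.74 SE, adjusted p = 0.00324). Toward the other end of the cluster HOXB2 was at 0.0460, 0 and 0.0466 in Control and 17.8, 14.8 and 12.2 in DTEP (log2 change 3.94 ± 0.17 SE, adjusted p = 1.48e-05), and HOXB3 rose by 2.70. These were the 5 called genes among 17 HOX genes tested. In the aryl hydrocarbon receptor list, AHR (-2.53) and its repressor AHRR (-2.70) fell and the target CYP1B1 rose (2.39), out of 7 tested.

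In 114 genes the level was 20 or more in every Control library and 0.5 or less in DTEP replicate 3, a set chosen after the values were seen and without use of the other DTEP libraries. Set against the Control mean, the median level of these genes was 7.18% in DTEP replicate 1 (interquartile range 4.59% to 14.4%) and 3.35% in replicate 2 (1.89% to 5.81%). Replicate 1 was above replicate 2 in 105 of the 114. The same genes stood at a median of 68.7% to 71.9% of Control in the DTP libraries and at 0% to 0.109% in LR. The median in DTEP replicate 3, which chose the set, was 0.389%. Whether the libraries differ in their mixture of cells was not tested, and the table holds no genotypes by which the origin of the cells could be compared.

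**Figure D5:**
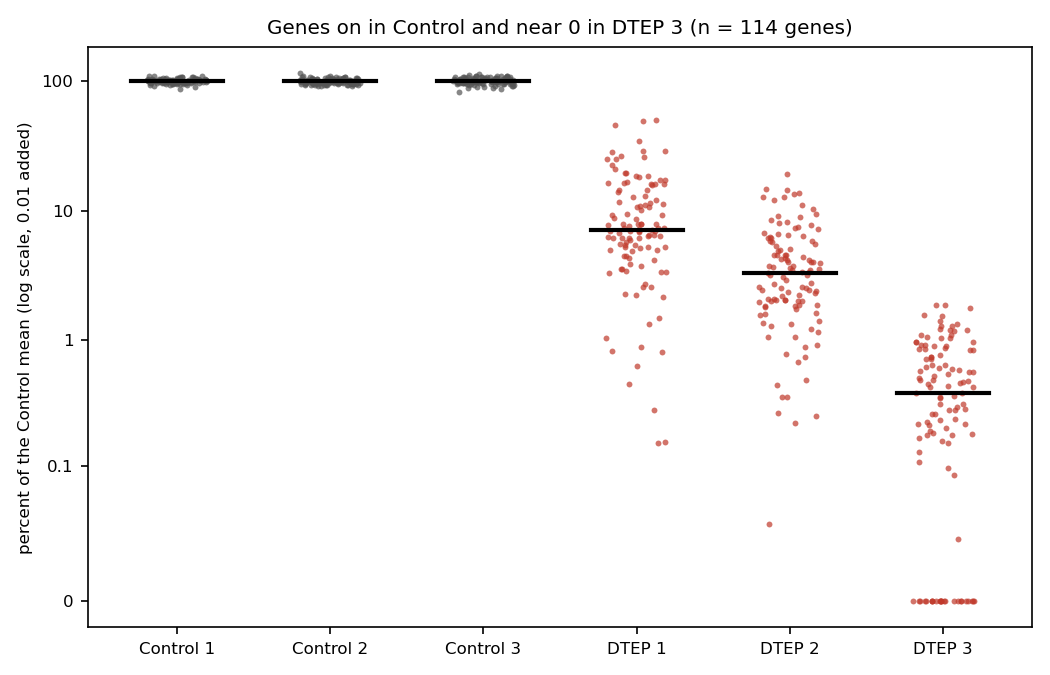
Level of 114 genes in the 6 libraries as a percent of the gene's Control mean, on a log scale with 0.01 added, for genes at 20 or more in each Control library and at 0.5 or less in DTEP replicate 3; each point is a gene and black bars are medians. The points of the Control libraries gather at 100%, and the DTEP medians are 7.18%, 3.35% and 0.389% in replicates 1, 2 and 3.

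DTEP replicate 3 lay above both other DTEP libraries by more than 2 on the log2 scale in 19 genes and below them in 105. CYP1A1, a cytochrome induced through AHR, was at 79.8, 56.8 and 1.18 in DTEP, 7.36, 6.41 and 7.13 in Control and 504, 463 and 503 in DTP, so that its DTEP values lay on both sides of Control (log2 change 1.44 ± 1.28 SE, adjusted p = 0.375), and it passed as higher at 3.10 without DTEP replicate 3. IGFBP3, which binds IGFs, was at 429, 127 and 8.64 in DTEP against 108, 102 and 108 in Control (log2 change -0.40 ± 1.24 SE, adjusted p = 0.802). SLC1A7, a glutamate transporter, had no read in Control or DTP and was at 114, 50.9 and 2.58 in DTEP (log2 change 4.79 ± 1.17 SE, adjusted p = 0.012), a call lost without DTEP replicate 2. Above the other 2 lay XDH, xanthine dehydrogenase, at 6.55, 24.01 and 175 (log2 change 4.56 ± 1.03 SE, adjusted p = 0.00866), and REL, an NF-kappaB subunit, at 1.96, 2.60 and 35.4 against 23.9, 23.8 and 19.7 in Control (log2 change -1.68 ± 0.91 SE, adjusted p = 0.157). REL had a log2 change of -2.84 without DTEP replicate 3. DQX1 (2.31) was called with all libraries and lost its call without any 1 Control library (adjusted p up to 0.0884) and without DTEP replicate 3 (1.37), while DESeq2 gave it no adjusted p. ANKRD36C (-1.29), which has near copies, and LINC00342 (-1.22) were not called with all libraries, and without DTEP replicate 3 they passed as lower at -2.43 and -2.31.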

How the data were processed

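BT474 mRNA was sequenced by the authors from stranded TruSeq libraries, aligned to hg38 with Rsubread 2.0.0 and assigned to RefSeq genes with default settings, which ignore the strand. The authors' processing notes also name bcl2fastq and edgeR. The authors deposited a normalised signal per gene, which equalled CPM on library sizes multiplied by TMM factors, so whole reads could be recovered for every library.

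From the 3 DTEP and 3 Control libraries, genes with a value of 1 or more in at least 3 libraries were tested with limma 3.58.1 in R 4.3.3 on log2(value + 1), with a variance trend, no covariates, two-sided tests and Benjamini-Hochberg adjustment over 13171 genes. A change of low values is understated on this scale. The alternatives were pseudocounts of 0.1 and 0.5, other filters and scalings, all 12 libraries, no trend, the replicate number as a block, edgeR 4.0.16, DESeq2 1.42.0, a log2 limit of 1 and each library left out. The steps were also run on simulated reads that gave both groups the same spread, unlike the data. That run does not bear on the unequal spread of DTEP and Control or on changes of genes near 0.

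RefSeq positions on GRCh38.p14 were found for 12779 of the tested genes. Genes named were first the 10 called in each direction with the largest change, outside LOC and LINC symbols and with groups that did not overlap. Added to them were up to 4 called members of each of 43 lists with the largest change and a set the study followed. The last were the 5 genes in which the library most often apart lay farthest above and below. The comparison, lists and rule were chosen with earlier results of these data known. Some genes that the rule names, 1 non-coding RNA among the 10 that rose included, are not reported here. List members outside this rule (SPRED1, FGFR3, MERTK, CLCA2, MUCL1, XBP1, CPT1A, IFITM3, IFI35, IRF7, COL4A6, ABCA3, HOXB3, TOP2A, BNIP3, NDRG1, ID1, ID3, COL4A2, COL6A2, COL18A1) and the genes named by position were chosen after their values were seen.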

Additional observations from a re-analysis of the deposited data

How the results depend on the processing

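The counts of 609 higher and 848 lower genes stayed within 1.5 times under most alternatives. The exceptions were a log2 limit of 1, which gave 2026 higher and 2212 lower genes, and, for the genes that fell, a pseudocount of 0.1 with 1318 and DESeq2 with 1337. edgeR called 910 higher and 1263 lower genes. With 1 library left out, 595 to 633 genes rose and 757 to 975 fell. The median change over all genes shifted by 0.0489 when values were rescaled with TMM and by -0.0442 with median-of-ratios factors. Samples with the same replicate number did not deviate together (r = -0.0759, 0.0528 and -0.0935), and with the replicate number as a block 611 genes rose and 854 fell.

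A log2 limit of 1 raised the estrogen response genes that fell to 19. With 5 in place of 10 normalised read counts, 58 genes were on in DTEP and off in Control, and 11 the reverse. At the limit of 10 the latter count was 4 to 11 with 1 library left out. A limit of 1 on the log2 scale put DTEP replicate 3 apart in 1252 genes. The chromosome 17 window had a median of -1.34 at 10 Mb and was then second to chromosome X from 20 to 30 Mb at -1.49. Of the 86 counts of list members that rose or fell, 27 moved by over 1.5 times with 1 library left out, 21 of them by 1 gene, 5 by 2 and 1 by 3.

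Of 119 named genes that were called, 98 kept the call under every alternative, 21 lost it under at least 1 and 0 changed direction. Genes that were not called changed sign as follows. DUSP1 was at 0.0156 with edgeR and from -0.438 to 0.347 with 1 library left out. IGFBP3 was at 0.825 with edgeR, 0.757 with DESeq2 and from -1.61 to 1.13 with 1 library left out. EGR1 was at -0.00114 with median-of-ratios scaling and from -0.677 to 1.40 with 1 library left out. The ranges with 1 library left out were -0.296 to 0.665 for CDC25A and -0.284 to 0.184 for CCND1. The cause was not tested for any of these, beyond the smaller number of samples. Without DTEP replicate 3 the signs of DUSP1, CCND1 and IGFBP3 turned, and that library lay apart from its group more often than any other. Depth limited the statements on genes near 0, where 3 reads are worth 0.124 to 0.168 normalised read counts.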
